A study of Mus musculus with 9 samples.

Results

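The genes of T cells, natural killer (NK) cells, B cells and plasma cells were followed in the normal colonic mucosa of mice given a colon carcinogen, with or without butyrate. The set held 41 genes, listed by symbol as lymphocyte markers: 20 T cell genes, 6 NK and cytotoxic genes, 12 B cell genes and 3 plasma cell genes, out of 15346 named genes tested on the arrays. A probe was found for 40 of the 41 through its RefSeq accession, the exception being Cd8b1, and 39 were tested. The B cell factor Pax5 was well above background on 2 of the 9 arrays and did not pass the filter of 3 arrays.

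All mice were of the outbred ICR stock, and all received subcutaneous 1,2-dimethylhydrazine (DMH), a carcinogen that causes colon tumors in rodents, at 20 mg/kg once a week for 20 weeks. In the first group the drinking water held 1.5% butyrate, a short-chain fatty acid made by gut bacteria, and the mice had tumors (3 arrays). The second group had the same treatment and no tumors (3 arrays). The third, the DMH group, had plain water (3 arrays), and its labels call its tumor status only control. The study compared butyrate with DMH. Tumor status was taken from the titles, descriptions and source names. The characteristic named tumor status says the reverse for each of the 6 butyrate arrays. If that field is right, the names of the 2 butyrate groups change places and the sign of each difference between them turns. The labels give no age or sex, and do not say whether the arrays are separate animals, so p-values measure only the spread between these samples. RNA came from bulk mucosa, in which fewer cells of a type and less RNA per cell cannot be told apart.

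The colon wall holds lymphocytes in distinct places. T cells and cytotoxic cells lie between epithelial cells and in the lamina propria, and a T cell recognises antigen through its receptor, whose signal passes through the CD3 chains to the kinases Lck and Zap70. B cells gather in lymphoid follicles, where chemokines such as Cxcl13 draw in cells that carry the receptor Cxcr5. Plasma cells, the end stage of B cells, sit in the lamina propria and secrete immunoglobulin A, which is joined into dimers by the J chain.

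The promoters of the members were searched for short motifs of lymphocyte regulation. RefSeq promoter sequences (GRCm38.p6) were at hand for 29 members, and the 250 bases before each annotated gene start were searched on both strands for 4 motifs. The E-box CAGGTG (reverse complement CACCTG), the form bound by E proteins of early B and T cell development, was found in 16 of 29 members, against 19.4% of all 27025 genes with a promoter in the table. By list these were 8 of 14 T cell genes, 2 of 5 NK genes, 6 of 8 B cell genes and 0 of 2 plasma cell genes. A gene with several annotated starts was counted when any of its windows held the motif. The octamer ATGCAAAT was found in 0 members, against 1.81% of all genes. GAGGAAG, a core of sites for the Ets factors PU.1 and Spi-B, was found in 5 members, against 12% of all genes. The TATA box TATAAA was found in 3 members, against 14.3% of all genes. None of the 4 motifs contains another, and overlapping matches of different motifs were each counted. A match describes the letters and not a bound site.

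The windows of 4 members are printed, with the E-box in capitals. Cd3d encodes a signalling chain of the T cell receptor and stands for the T cell genes. Its window is chr9:44981536-44981785 on the plus strand, with the motif starting 112 bases before the gene start. Cd79a encodes a signalling chain of the B cell receptor, with the window chr7:24897247-24897496 on the plus strand and the motif at 154 bases. Tnfrsf13c encodes the receptor for the B cell survival factor BAFF, with the window chr15:82224381-82224630 on the minus strand and the motif at 96 bases. Jchain encodes the J chain and stands for the plasma cells, with the window chr5:88527898-88528147 on the minus strand and no E-box. Each is the stretch directly upstream of the annotated gene, written 5′ to 3′ on the strand of the gene.
Cd3d: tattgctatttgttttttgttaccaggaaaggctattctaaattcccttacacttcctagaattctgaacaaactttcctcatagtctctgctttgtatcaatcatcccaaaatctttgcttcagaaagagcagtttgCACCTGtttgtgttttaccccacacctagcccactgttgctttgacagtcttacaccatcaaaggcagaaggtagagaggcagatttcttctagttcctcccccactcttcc
Cd79a: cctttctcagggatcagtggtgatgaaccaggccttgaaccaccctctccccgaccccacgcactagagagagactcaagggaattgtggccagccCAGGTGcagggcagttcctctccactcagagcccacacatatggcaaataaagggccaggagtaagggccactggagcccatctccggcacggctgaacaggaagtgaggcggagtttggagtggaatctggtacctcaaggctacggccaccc
Tnfrsf13c: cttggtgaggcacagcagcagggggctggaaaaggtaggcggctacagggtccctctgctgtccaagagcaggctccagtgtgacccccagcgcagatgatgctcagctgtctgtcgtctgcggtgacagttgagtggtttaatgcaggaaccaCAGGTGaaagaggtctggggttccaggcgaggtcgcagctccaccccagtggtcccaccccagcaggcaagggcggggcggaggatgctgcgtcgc
Jchain: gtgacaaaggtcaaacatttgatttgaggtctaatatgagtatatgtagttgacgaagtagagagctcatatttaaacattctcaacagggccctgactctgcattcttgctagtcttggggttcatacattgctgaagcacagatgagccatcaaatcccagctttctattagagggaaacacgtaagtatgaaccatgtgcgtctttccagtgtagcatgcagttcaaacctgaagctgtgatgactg

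Levels are given as the log2 signal of a gene's probe relative to the 75th percentile of its array, so a value of 0 is the 75th percentile. They compare arrays for 1 gene and not genes with each other. Calls rest on limma with Benjamini-Hochberg adjustment over 21964 features, at an adjusted p under 0.05. With 3 arrays a group, precision is low. The 75th percentile signal lay between 188 and 880 on the 9 arrays, and was lowest on array 1 with tumors (188) and array 1 without tumors (281). The median SD of a feature within a group was 0.383 with tumors, 0.267 without tumors and 0.116 in DMH mucosa, on the log2 scale. Array 1 with tumors and the 3 arrays without tumors shared 1 slide. Arrays 2 and 3 with tumors shared another, and the DMH arrays lay on further slides scanned on another day, so that slide and scan day cannot be told apart from butyrate in any comparison with DMH.

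Array 1 with tumors stood apart from the other 8. Of the 39 tested members, 35 had their highest level there, against 19.3% of all features. By list these were 18 of 19 T cell genes, 5 of 6 NK genes, 11 of 11 B cell genes and 1 of 3 plasma cell genes. In 30 of 39 members the level on this array exceeded the DMH mean by a log2 of 2 or more, against 4.28% of all features. The largest excess was that of Cd28, the costimulatory receptor of T cells, at 15.4-fold the DMH mean. The B cell surface protein gene Ms4a1 stood at 10.8-fold and the T cell receptor chain gene Cd3d at 11.5-fold. Array 3 with tumors was the second highest for 31 of 39 members, a count for which the share of all features was not computed.

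**Figure D1:**
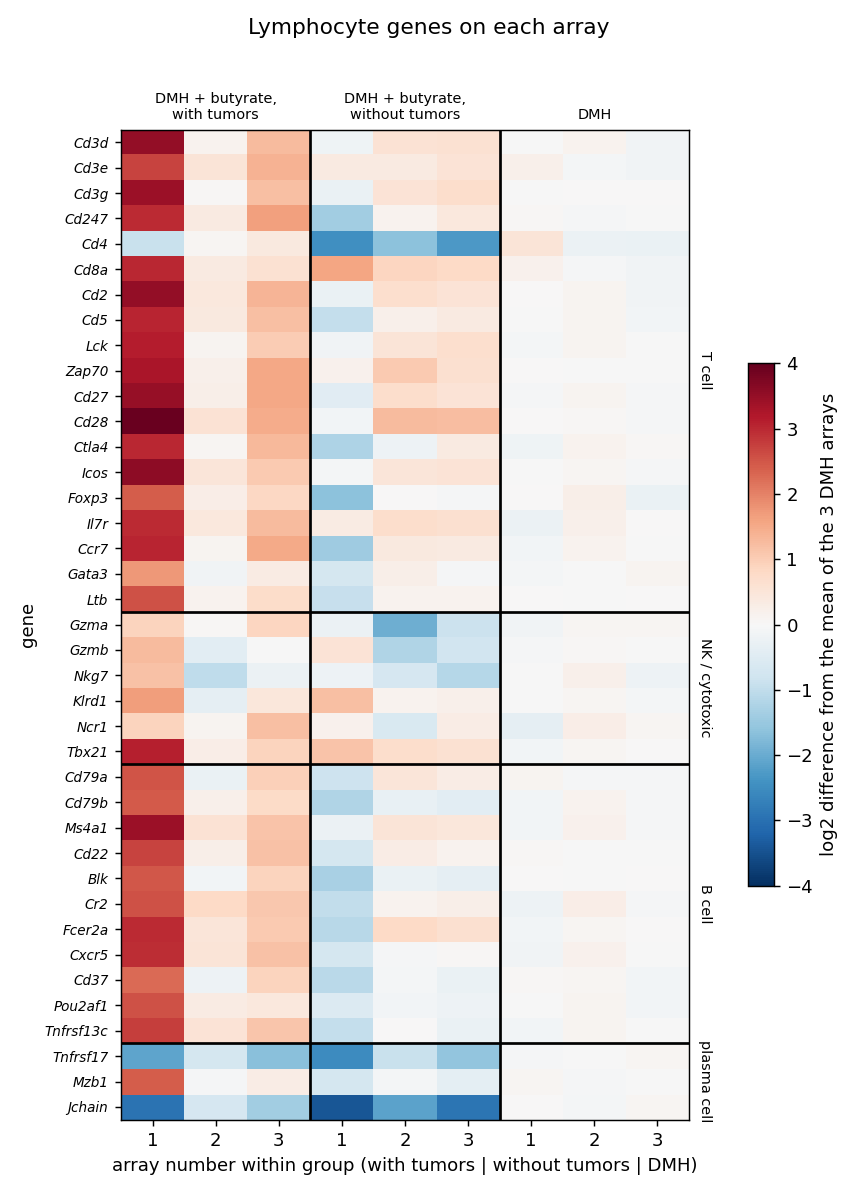
Each of the 39 tested genes (vertical axis, grouped by list) on each of the 9 arrays (horizontal axis), coloured by the log2 difference of its level from the mean of the 3 DMH arrays. Array 1 with tumors is red for nearly every T, NK and B cell gene, with a median log2 difference over the 39 genes of 2.70, while Tnfrsf17 and Jchain are blue on all 6 butyrate arrays.

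Array 1 without tumors stood at the other end. It was the lowest of the 9 arrays for 29 of 39 members, with 15 of 19 T cell genes, 11 of 11 B cell genes and 3 of 3 plasma cell genes. The share of all features lowest on this array was not computed, so the count has no value to stand beside. Array 1 without tumors was the lowest for 0 of 6 NK genes, and the second highest for 3 of them and for Cd8a. The median level of the 19 T cell genes relative to the DMH mean was 3.04, 0.23 and 1.26 on arrays 1 to 3 with tumors and -0.27, 0.49 and 0.53 on arrays 1 to 3 without tumors. For the 11 B cell genes these medians were 2.56, 0.34 and 1.03 with tumors and -0.96, 0.02 and 0.04 without tumors. For the 6 NK genes they were 1.22, -0.16 and 0.66 with tumors and 0.37, -0.65 and -0.27 without tumors. The T and B cell lists placed arrays 1 and 3 with tumors at the top and array 1 without tumors at the bottom, while the NK list placed array 1 without tumors above its companions. The 3 plasma cell genes had medians of -2.10, -0.68 and -1.39 with tumors and -2.51, -0.89 and -1.59 without tumors, all below DMH.

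**Figure D2:**
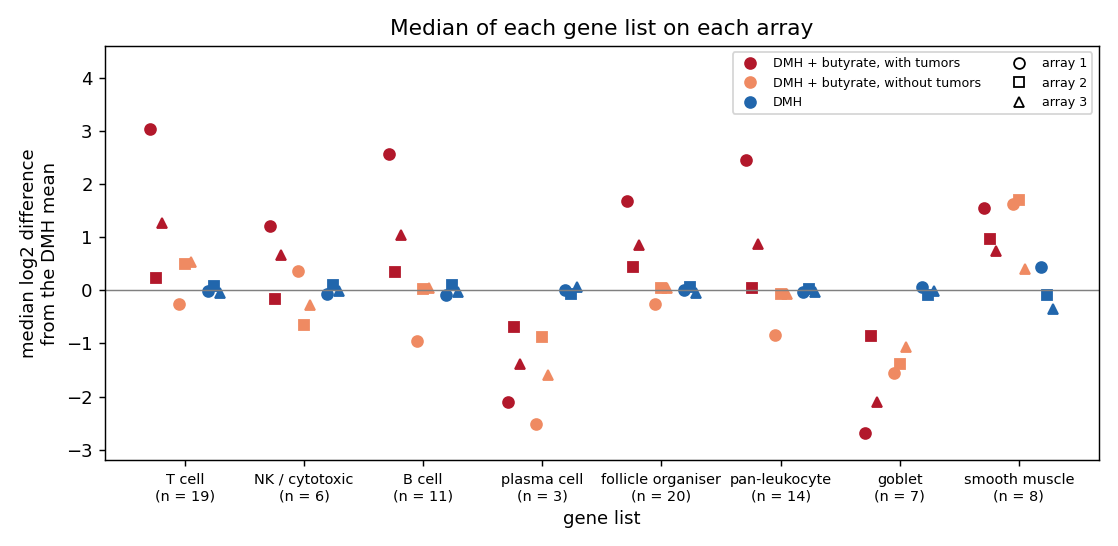
Median log2 difference from the DMH mean (vertical axis) of 8 gene lists (horizontal axis, with the number of genes tested) on each array, where colour marks the group and the symbol the array number. The medians of the T cell, B cell, follicle organiser and pan-leukocyte lists are highest on array 1 with tumors, at 3.04, 2.56, 1.67 and 2.45, and the plasma cell median lies below 0 on all 6 butyrate arrays.

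Other lists moved with these arrays. Of 23 genes of lymphoid follicles and their stroma, 20 were tested (not Tnfsf13, Il21 or Fdcsp), and their summed signal, in multiples of the 75th percentile, ran from 34.7 to 94.7 with tumors, from 15.4 to 26.8 without tumors and from 22.3 to 26.4 in DMH mucosa, with the maximum on array 1 with tumors. The summed signal of all 14 pan-leukocyte genes ran from 61.4 to 248.5 with tumors, from 24.8 to 42.1 without tumors and from 57.4 to 61.3 in DMH mucosa. That of the 11 B cell members ran from 31.7 to 158.5, from 14.2 to 25.1 and from 23.9 to 27.1 in the same groups. The 7 goblet cell genes summed to 190.9 to 749.4 with tumors, 422.4 to 564.5 without tumors and 1286 to 1409 in DMH mucosa, and the 8 smooth muscle genes to 440.4 to 882.9, 388.1 to 847.9 and 223.4 to 383.2. The part of these lists in the lymphocyte values was not tested. No tested gene had a signal of 0, and Cxcl13, the B cell chemokine, was well above background on all 9 arrays. The 13 epithelial genes summed to 777.5 to 1021 with tumors, 876.4 to 1035 without tumors and 1445 to 1689 in DMH mucosa. The sum on each butyrate array thus lay below the DMH range, but bright genes weigh most in a sum and not every gene fell. Without tumors against DMH, 6 of the 13 were called lower and 2 higher, where 13.8% and 16.6% of all features were. On array 1 with tumors the epithelial sum was 777.5 and the smooth muscle sum 882.9. Whether the labelled tissue matched its markers was not tested.

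In all butyrate mucosa against DMH mucosa, the 2 called members were plasma cell genes, and both fell. Members called lower were 2 of 39, against 3.35% of all features, and members called higher were 0 of 39, against 5.85%. Jchain had levels of 2.92, 5.19 and 4.48 with tumors and 2.46, 3.72 and 2.95 without tumors, against 5.89, 5.79 and 5.94 in DMH mucosa. All 6 butyrate arrays lay below all 3 DMH arrays, and array 1 was the lowest of each butyrate group. Tnfrsf17, which encodes the plasma cell survival receptor BCMA, had levels of -3.77, -2.37 and -3.34 with tumors and -4.18, -2.55 and -3.26 without tumors, against -1.72, -1.69 and -1.58 in DMH mucosa. Its groups did not overlap either, and array 1 was again the lowest of each.

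The mean log2 level of Jchain was 3.62 ± 1.05 with butyrate (SD, n = 6) and 5.88 ± 0.08 in DMH mucosa (SD, n = 3), a log2 change of -2.25 ± 0.55 (SE) and a 4.77-fold lower signal (limma, adjusted p = 0.0399). A second Jchain probe gave log2 differences from DMH of -1.19 with tumors and -2.22 without tumors. For Tnfrsf17 the mean was -3.24 ± 0.69 with butyrate (SD, n = 6) and -1.66 ± 0.08 in DMH mucosa (SD, n = 3), a log2 change of -1.58 ± 0.38 (limma, adjusted p = 0.0381). Without array 1 with tumors both missed the threshold, at log2 changes of -2.11 for Jchain and -1.48 for Tnfrsf17 (limma, adjusted p = 0.0589 and 0.0545). Leaving out any DMH array, or array 2 or 3 without tumors, also left 0 members called, and so did slide as a random block. Of all features 0.0319% to 3.23% were called on leaving out these arrays, and 0.0774% with the slide block. Over all alternatives the call of Jchain was lost in 14 of 20 and that of Tnfrsf17 in 9 of 20. After normexp background correction the Tnfrsf17 change was -0.58.

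Mzb1 encodes a chaperone of immunoglobulin assembly found in plasma cells and also in marginal zone B cells. With tumors it did not follow the other plasma cell genes. Its levels were 4.34, 1.88 and 2.21 with tumors and 1.22, 1.84 and 1.54 without tumors, against 2.00, 1.86 and 1.90 in DMH mucosa. It was highest on array 1 with tumors, as the B cell genes were, and its log2 difference from DMH over all butyrate arrays was 0.25 ± 0.59 (limma, adjusted p = 0.798). All 3 arrays without tumors lay below all DMH arrays, as for Jchain and Tnfrsf17, by a log2 of -0.39 that was not called.

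The other plasma cell list, of 10 genes, held transcription factors and secretory proteins as well as Cd28, which is also one of the T cell members. It also held Pigr, an immunoglobulin receptor of epithelial cells, so the list was not confined to plasma cells. With butyrate 2 of 10 fell, Xbp1 and Derl3, where 3.35% of all features fell, and 0 rose. Derl3, a component of the endoplasmic reticulum degradation machinery, changed by a log2 of -0.85 ± 0.18 (limma, adjusted p = 0.0317). With tumors, Fkbp11 and Sdc1 fell by 1.32 and 1.07 on the log2 scale against DMH (limma, adjusted p = 0.0399 and 0.0467), as 2.26% of all features did. Fkbp11 encodes a folding enzyme of the secretory pathway and Sdc1 a surface proteoglycan that epithelial cells also carry. Without tumors, 4 of 10 fell, where 13.8% of all features did, among them Ccr10, the receptor that guides immunoglobulin A plasma cells to mucosa, with a log2 change of -1.94 ± 0.46 (limma, adjusted p = 0.0163). The median log2 difference of the list over all butyrate arrays was -0.79, beside 0.08 over all features and -1.83 over the 7 goblet cell genes. The part of goblet and other epithelial cells in the values of this list was not tested.

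**Figure D3:**
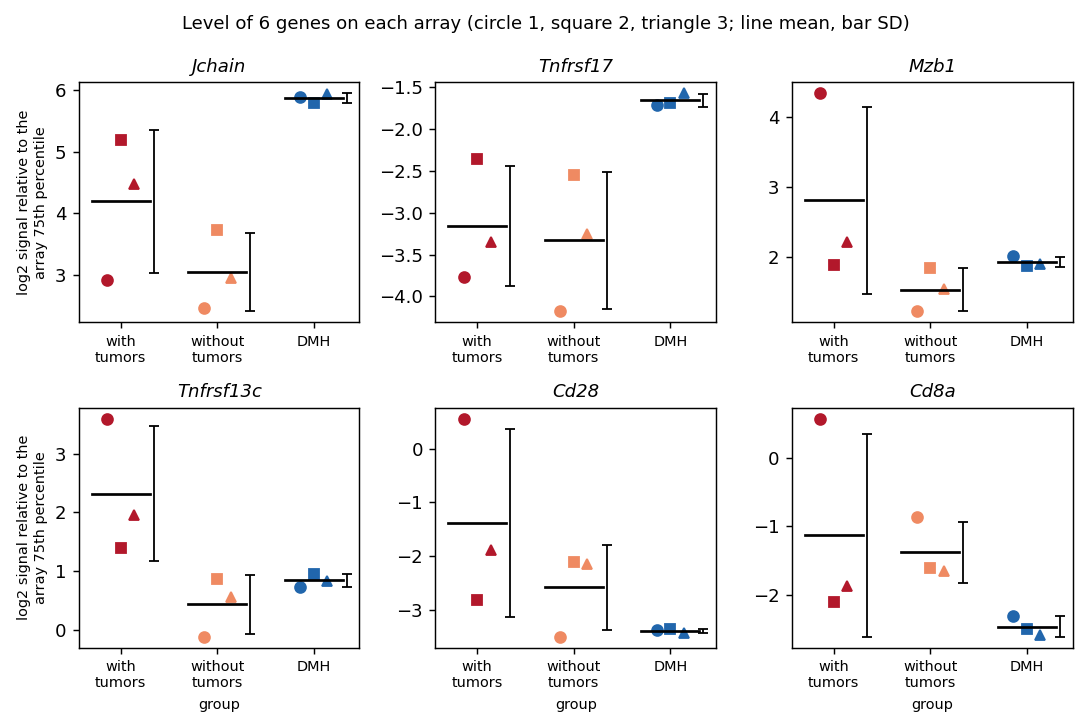
Log2 level relative to the 75th percentile of the array (vertical axes, which differ between panels) of 6 genes in the 3 groups (horizontal axes), with 1 symbol per array, a line at the mean and a bar of 1 SD (n = 3). Jchain and Tnfrsf17 lie below DMH on all 6 butyrate arrays, whereas Mzb1, Tnfrsf13c, Cd28 and Cd8a are highest on array 1 with tumors (4.34, 3.60, 0.56 and 0.57).

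Among T, NK and B cell genes, 5 had all 6 butyrate arrays above all 3 DMH arrays, and none was called. These 5 of 39 members compare with 14.5% of all features. They were Cd8a, the coreceptor of cytotoxic T cells, Cd3e, a chain of the T cell receptor complex, Zap70, Il7r, the receptor for the survival factor interleukin 7, and Tbx21, the transcription factor T-bet of type 1 and NK lymphocytes. Cd8a had levels of 0.57, -2.09 and -1.86 with tumors and -0.86, -1.61 and -1.65 without tumors, against -2.30, -2.49 and -2.58 in DMH mucosa. Its log2 difference was 1.20 ± 0.52 (limma, adjusted p = 0.151). The 2 other Cd8a probes gave differences without tumors from DMH of -0.25 and 0.19, so that its place above DMH without tumors rested on 1 of 3 probes.

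Tbx21 had levels of -0.19, -3.01 and -2.38 with tumors and -2.15, -2.58 and -2.69 without tumors, against -3.38, -3.19 and -3.28 in DMH mucosa. Array 1 was the highest of both butyrate groups, and the log2 difference over all butyrate arrays was 1.12 ± 0.53 (limma, adjusted p = 0.186). The median log2 difference over all butyrate arrays was 0.94 for the 19 T cell genes, 0.12 for the 6 NK genes, 0.54 for the 11 B cell genes and -1.58 for the 3 plasma cell genes, beside 0.08 for all features. Without array 1 with tumors the medians of the T, NK and B cell genes were 0.45, -0.067 and 0.12. Without array 1 without tumors the B cell median was 0.84. The NK median ran from -0.067 to 0.33 on leaving out 1 array, so that it had no settled sign.

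In mucosa with tumors against DMH mucosa, no member was called, while 17 of 39 had an unadjusted p under 0.05 in limma. Called features made up 5.7% of all features, and 29.9% had such an unadjusted p. In 23 of 39 members all 3 arrays with tumors lay above all DMH arrays, against 23.1% of all features. These were 14 of 19 T cell genes, 1 of 6 NK genes and 8 of 11 B cell genes. The median log2 difference was 1.55 for the T cell genes, 0.59 for the NK genes and 1.37 for the B cell genes, beside 0.08 for all features. The size of these medians rested on array 1. Without it they were 0.77, 0.25 and 0.71, and without array 2 with tumors the NK median was 0.95.

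Cd28 had levels of 0.56, -2.82 and -1.89 with tumors and -3.50, -2.11 and -2.14 without tumors, against -3.38, -3.36 and -3.43 in DMH mucosa. All arrays with tumors exceeded all DMH arrays, but array 1 lay far above the other 2. Its mean was -1.39 ± 1.75 with tumors and -3.39 ± 0.04 in DMH mucosa (SD, n = 3 each), a log2 difference of 2.00 ± 0.77 (limma, adjusted p = 0.129).

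Cd2, an adhesion receptor of T and NK cells, had levels of 1.37, -1.71 and -0.77 with tumors and -2.39, -1.45 and -1.58 without tumors, against -2.13, -2.02 and -2.27 in DMH mucosa. Cd27, a costimulatory receptor of the TNF receptor family, had 1.35, -1.89 and -0.56 with tumors and -2.59, -1.41 and -1.59 without tumors, against -2.17, -2.02 and -2.17 in DMH mucosa. In both, array 2 with tumors lay just above the DMH arrays and array 1 far above all others. Their log2 differences with tumors from DMH were 1.77 ± 0.67 and 1.75 ± 0.71 (limma, adjusted p = 0.126 and 0.142). The smallest adjusted p among T cell genes in this comparison was that of Cd3e (limma, adjusted p = 0.0798), with a log2 difference of 1.53 ± 0.47.

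Leaving out array 2 with tumors brought 9 members past the threshold against DMH. Cd2, Cd22, Cd27, Cd3e, Cxcr5, Il7r and Zap70 were then called higher and Jchain and Tnfrsf17 lower, while 8.16% of all features were called. Leaving out array 1 or array 3 with tumors left 0 called, where 4.57% and 0.241% of all features were called. Among the follicle genes, 3 of 20 rose with tumors against DMH, where 3.44% of all features rose, and 0 fell. Cxcl13 had levels of 3.60, 2.37 and 2.79 with tumors and 0.86, 1.01 and 1.53 without tumors, against 1.21, 1.65 and 1.37 in DMH mucosa. All arrays with tumors lay above all others, and its log2 difference from DMH was 1.51 ± 0.32 (limma, adjusted p = 0.0408).

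Glycam1, a mucin-like ligand for the lymphocyte homing receptor L-selectin on high endothelial venules, had 3.13, 2.36 and 2.77 with tumors and -0.16, 1.16 and 0.81 without tumors, against 0.41, 1.08 and 1.1 in DMH mucosa. Its groups with tumors and DMH did not overlap, with a log2 difference of 1.89 ± 0.37 (limma, adjusted p = 0.0368). Tnfsf11, the cytokine RANKL that lymphoid stroma uses to induce M cells, rose by a log2 of 2.04 ± 0.37 (limma, adjusted p = 0.0319). Of 19 other B cell signalling genes 1 rose, where 3.44% of all features rose. It was Ikzf3, a transcription factor of mature lymphocytes, by a log2 of 1.64 ± 0.35 (limma, adjusted p = 0.0402). Of 19 other T cell signalling genes 0 were called, with 11 at an unadjusted p under 0.05, where 29.9% of all features had such a p.

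In mucosa without tumors against DMH mucosa, 3 of 39 members fell and 0 rose, where 13.8% of all features fell and 16.6% rose. They were Jchain, Tnfrsf17 and Cd4. The log2 change of Jchain was -2.83 ± 0.54 and that of Tnfrsf17 was -1.66 ± 0.45 (limma, adjusted p = 0.00846 and 0.0264). Jchain stayed called on leaving out any 1 array. Tnfrsf17 lost its call without array 1 or array 3 without tumors (limma, adjusted p = 0.0689 and 0.0565) and without any 1 of the DMH arrays (limma, adjusted p from 0.0633 to 0.0804), and after normexp background correction its change was -0.58. No member was called with slide as a random block, where 4.58% of all features were called.

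Cd4, the coreceptor of helper T cells, had levels of -5.54, -4.59 and -4.26 with tumors and -7.11, -6.31 and -6.94 without tumors, against -4.14, -4.89 and -4.93 in DMH mucosa. All 3 arrays without tumors lay below all 6 others. The probe was not well above background on any array without tumors, so only a bound can be given. Its signal was at least 3.36-fold lower without tumors than in DMH mucosa, where the bound sets the DMH mean against the dimmest well-above-background probe of each array (limma, adjusted p = 0.00681, measured means -6.78 and -4.66). That bound holds for the processed signal alone: after normexp background correction the log2 difference was -0.31 (limma, adjusted p = 0.0391). Its processed signal was 2.0 to 5.6 units without tumors and 27.0 to 41.9 in DMH mucosa. On array 1 with tumors it was 4.03 units, and there at least 1 of its 10 spots was marked as well above background. Cd4 was the sole T cell gene not at its highest on that array.

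Over all 39 members, the arrays without tumors lay on both sides of DMH: 6 had all 3 arrays above DMH and 9 all 3 below, against 32.8% and 27.2% of all features. The median log2 difference was 0.32 for T cell genes, -0.26 for NK genes and -0.24 for B cell genes, beside 0.08 for all features. These medians moved with single arrays and with the slide. With slide as a random block they were -0.40, -0.45 and -0.76. Without array 1 without tumors they were 0.52, -0.54 and -0.002, without array 2 they were 0.15, 0.075 and -0.37, and without array 3 they were 0.14, -0.27 and -0.38. With the authors' values the NK median was 0.14, and over probes well above background on all 9 arrays it was 0.023. Nkg7, a granule protein of cytotoxic cells, had levels of 0.01, -2.19 and -1.40 with tumors and -1.37, -1.83 and -2.31 without tumors, against -1.18, -0.94 and -1.35 in DMH mucosa. Its arrays without tumors lay below DMH by a log2 of -0.68 ± 0.50 (limma, adjusted p = 0.323), while its second probe gave a difference of 0.24.

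Klrd1, which encodes the CD94 receptor of NK and cytotoxic T cells, had levels of -0.43, -2.47 and -1.66 with tumors and -0.93, -1.97 and -1.91 without tumors, against -2.13, -2.02 and -2.19 in DMH mucosa. Array 1 was the highest of each butyrate group, and the log2 difference without tumors was 0.51 ± 0.49 (limma, adjusted p = 0.442). Gzmb, a granule protease of cytotoxic cells, had levels of -0.68, -2.37 and -1.96 with tumors and -1.39, -3.16 and -2.71 without tumors, against -1.99, -1.89 and -1.98 in DMH mucosa. Its butyrate arrays numbered 1 lay above DMH in both groups and all other butyrate arrays but array 3 with tumors lay below the DMH range.

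Between the butyrate groups, with tumors against without tumors, 3 of 39 members rose and 0 fell, where 6.99% of all features rose and 6.56% fell. They were 1 each of the T cell, NK and B cell lists: Cd4, Gzma and Tnfrsf13c. All 39 log2 differences were above 0. In 12 of 39 members all arrays with tumors exceeded all arrays without, against 16.8% of all features, with 3 of 19 T cell, 1 of 6 NK, 7 of 11 B cell and 1 of 3 plasma cell genes. The median log2 difference was 1.34 for T cell genes, 0.70 for NK genes, 1.47 for B cell genes and 1.15 for plasma cell genes, beside 0.01 for all features.

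Tnfrsf13c had levels of 3.60, 1.39 and 1.96 with tumors and -0.12, 0.86 and 0.56 without tumors, against 0.73, 0.95 and 0.83 in DMH mucosa. The butyrate groups did not overlap, and the DMH arrays lay below all arrays with tumors. Its mean was 2.32 ± 1.15 with tumors and 0.44 ± 0.50 without tumors (SD, n = 3 each), a log2 difference of 1.89 ± 0.52 (limma, adjusted p = 0.0470). Without array 1 with tumors the difference was 1.24, and it was still called (limma, adjusted p = 0.0210). The call was lost in 12 of 21 alternatives, in all of which the difference stayed above 0. It was lost without array 1, 2 or 3 without tumors (limma, adjusted p = 0.124, 0.0810 and 0.0914), without array 3 with tumors (limma, adjusted p = 0.110) and without any 1 of the DMH arrays (limma, adjusted p from 0.0686 to 0.0796).

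Gzma, a granule protease of cytotoxic cells, had levels of -3.12, -3.95 and -3.15 with tumors and -4.23, -5.94 and -4.87 without tumors, against -4.15, -3.94 and -3.91 in DMH mucosa. The lowest array with tumors lay above the highest without, and the log2 difference was 1.61 ± 0.42 (limma, adjusted p = 0.0415). Its call was lost in 14 of 19 alternatives, among them the omission of array 1 or 3 with tumors, of array 2 or 3 without tumors or of any DMH array (limma, adjusted p from 0.0504 to 0.134). After normexp background correction the difference was 0.37 (limma, adjusted p = 0.156). Cd4 was at least 3.05-fold higher with tumors, by the same kind of bound on the processed signal (limma, adjusted p = 0.0206, measured means -4.80 and -6.78). Its call was lost in 7 of 19 alternatives, among them the omission of array 3 with tumors or of array 1 or 3 without tumors (limma, adjusted p from 0.0532 to 0.0756). After normexp the Cd4 difference was 0.22 (limma, adjusted p = 0.158). Leaving out array 3 with tumors, or array 3 without tumors, left 0 members called, where 0.806% and 5.86% of all features were called. Leaving out array 2 with tumors gave 15, where 10.9% of all features were called.

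Among the B cell genes the next in size were Cxcr5, Cd79b and Blk. Cxcr5, the receptor that leads B cells into follicles, had levels of 3.11, 0.68 and 1.33 with tumors and -0.55, 0.11 and 0.19 without tumors, against 0.02, 0.32 and 0.12 in DMH mucosa. Cd79b, a signalling chain of the B cell receptor, had 5.47, 3.24 and 3.78 with tumors and 1.82, 2.74 and 2.62 without tumors, against 2.93, 3.16 and 2.99 in DMH mucosa. In both the arrays with tumors lay above all 6 others. Their log2 differences between the butyrate groups were 1.79 ± 0.55 and 1.77 ± 0.52 (limma, adjusted p = 0.0623 and 0.0569).

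Blk, a kinase of B cell receptor signalling, had levels of 0.03, -2.57 and -1.55 with tumors and -3.74, -2.72 and -2.79 without tumors, against -2.43, -2.47 and -2.44 in DMH mucosa. Here array 2 with tumors lay below the DMH arrays, so that the difference of 1.72 ± 0.58 drew on both butyrate groups (limma, adjusted p = 0.0799). Fcer2a, the low-affinity receptor for immunoglobulin E on follicular B cells, had the widest range of the B cell genes, with levels of 3.30, 0.81 and 1.37 with tumors and -0.78, 1.12 and 0.97 without tumors, against 0.23, 0.42 and 0.34 in DMH mucosa. Its butyrate groups overlapped.

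The widest ranges among the T cell genes were those of Ccr7, Cd247 and Ctla4. Ccr7, the receptor that brings naive T cells and dendritic cells into lymphoid tissue, had levels of 1.27, -1.67 and -0.26 with tumors and -3.18, -1.37 and -1.41 without tumors, against -1.88, -1.63 and -1.79 in DMH mucosa. Cd247, the zeta chain of the T cell receptor, had 0.27, -2.37 and -1.09 with tumors and -4.10, -2.58 and -2.29 without tumors, against -2.67, -2.76 and -2.73 in DMH mucosa. Ctla4, an inhibitory receptor of activated and regulatory T cells, had -1.50, -4.45 and -3.22 with tumors and -5.74, -4.71 and -4.17 without tumors, against -4.69, -4.39 and -4.46 in DMH mucosa. In all 3, array 1 gave both the top of the range, with tumors, and its bottom, without tumors, while array 2 of each butyrate group lay near the DMH arrays.

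The remaining members not given by array were Cd3d, Cd3e, Cd3g, Cd5, Lck, Zap70, Icos, Foxp3, Il7r, Gata3 and Ltb of the T cell list, Ncr1 of the NK list, and Cd79a, Ms4a1, Cd22, Cr2, Cd37 and Pou2af1 of the B cell list. Adjusted p-values of all T cell members in this comparison ran from 0.0206 to 0.805, and those of the B cell members from 0.0470 to 0.250 (limma). Ncr1, an activating receptor of NK cells, was not well above background on any array without tumors, nor on array 1 with tumors. Its measured means were -4.83 with tumors and -5.59 without tumors, and the difference was not called (limma, adjusted p = 0.162). The probes of the 9 members with several agreed in sign between the butyrate groups in 9 of 9 members, and in 8 of 9 between tumors and DMH, Nkg7 being the exception. Without tumors against DMH, the probes disagreed in sign for Cd8a, Icos, Nkg7 and Cd22. For Icos the log2 differences were -0.31 and 0.32.

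**Figure D4:**
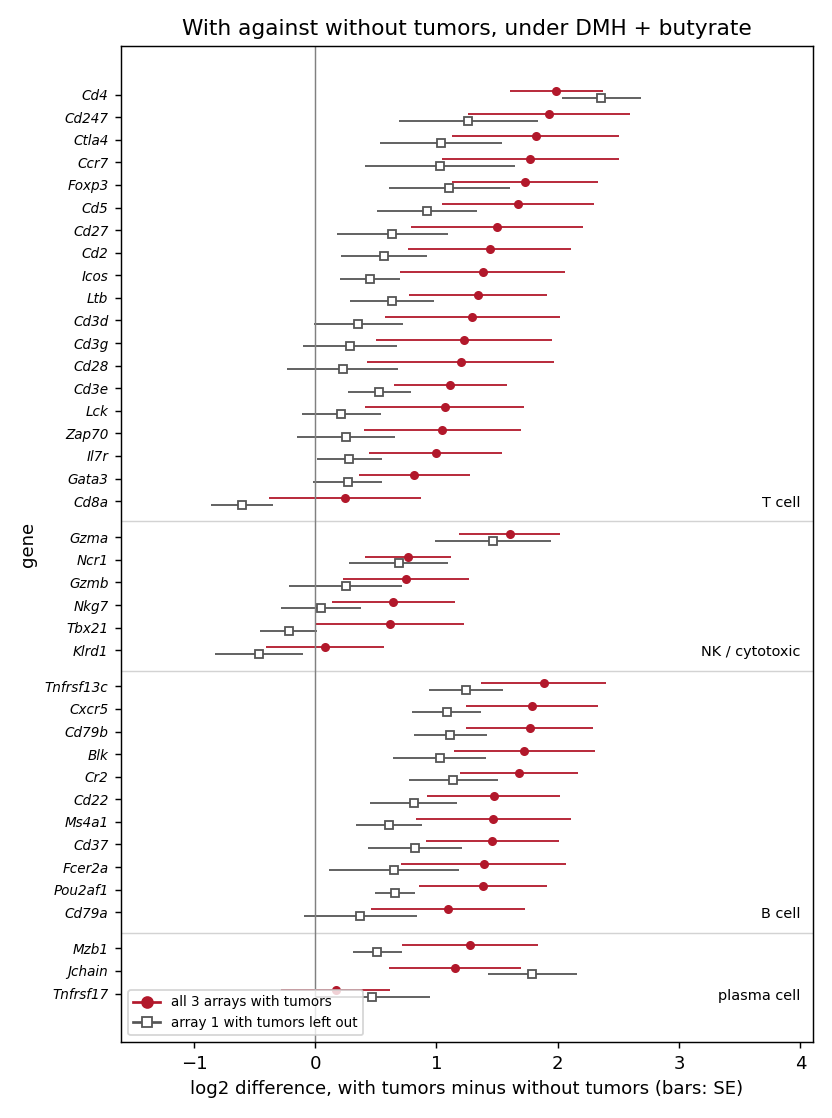
Log2 difference with tumors minus without tumors (horizontal axis, bars of 1 SE) of the 39 tested genes (vertical axis), from all arrays (filled circles) and with array 1 with tumors left out (open squares). The T cell median is 1.34 with all arrays and 0.53 without array 1, Cd8a, Tbx21 and Klrd1 turn below 0, and Tnfrsf13c stays at 1.24.

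Array 1 with tumors and the 3 arrays without tumors share a slide, and within it the T cell genes were higher on the array with tumors by a median log2 of 3.10, the B cell genes by 2.87 and the NK genes by 1.79, with no replicate. With slide as a fixed block over the 6 butyrate arrays, which rests on the same contrast, 7 members rose, Cd79b, Cxcr5, Icos, Ms4a1, Mzb1, Pou2af1 and Tnfrsf13c, where 1.63% of all features were called. With slide as a random block 17 rose, where 10.2% of all features were called. With array 1 with tumors left out, which takes the only slide with both groups away, 7 members rose, Cd4, Cd79b, Cr2, Cxcr5, Jchain, Pou2af1 and Tnfrsf13c, where 35.4% of all features were called. The median log2 difference of the B cell genes was then 0.82, that of the T cell genes 0.53 and that of the NK genes 0.15. Cd79b, Cxcr5, Pou2af1 and Tnfrsf13c passed in both of the 7-gene sets. The fits behind these sets use the same 3 arrays without tumors and are not independent. The share of all features passing in both was not computed.

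Between the butyrate groups 7 of the 20 follicle genes rose and 0 fell, and of 14 pan-leukocyte genes 4 rose and 0 fell, where 6.99% of all features rose and 6.56% fell. Without tumors against DMH, 5 of the 20 follicle genes and 1 of the 14 pan-leukocyte genes fell and 0 rose, where 13.8% of all features fell. S1pr2, a receptor that holds B cells in germinal centres, had levels of -2.85, -2.70 and -2.39 with tumors and -6.15, -4.32 and -4.84 without tumors, against -3.62, -2.86 and -2.91 in DMH mucosa, a log2 difference between the butyrate groups of 2.46 ± 0.44 (limma, adjusted p = 0.0181). Its arrays with tumors lay above all others. The S1pr2 difference after normexp background correction, which shrank those of Cd4 and Gzma, was not examined.

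Of 19 other B cell signalling genes 3 rose, Ebf1, Fcrl1 and Ralgps2, where 6.99% of all features rose. Ebf1, the factor that commits cells to the B lineage, was not well above background on any array without tumors. It was at least 4.66-fold higher with tumors (limma, adjusted p = 0.0142, measured means -3.81 and -6.45). As for Cd4, that bound holds for the processed signal alone, and the Ebf1 difference after normexp background correction was not examined. Of 19 other T cell signalling genes 3 rose, Tcf7, Grap2 and Sla2, and 0 fell, where 6.99% of all features rose and 6.56% fell. Tcf7, a factor of naive and memory T cells, had levels of 1.89, 0.45 and 1.50 with tumors and -1.34, -0.55 and -0.68 without tumors, against 0.61, 0.76 and 0.75 in DMH mucosa. Its DMH arrays lay between the butyrate groups except for array 2 with tumors, and the log2 difference was 2.14 ± 0.37 (limma, adjusted p = 0.0160). Of 15 other cytotoxic genes 2 rose, Gzmc and Klrg1, against the same 6.99% of all features.

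Markers of other leukocytes also differed between the butyrate groups. Of 8 neutrophil genes listed, 5 were tested, and Ngp, Camp and Cxcr2 did not pass the filter. Of the 5, 4 rose with tumors against without tumors, where 6.99% of all features rose, and 5 of 5 fell without tumors against DMH, where 13.8% fell. Their summed signal, in multiples of the 75th percentile, ran from 0.569 to 5.79 with tumors, from 0.127 to 0.327 without tumors and from 3.65 to 3.95 in DMH mucosa. It was lowest with tumors on array 1, the array on which 18 of 19 T cell genes and 11 of 11 B cell genes were highest. S100a8 and Ltf, genes of neutrophil granule and cytosol proteins, were not well above background on any array without tumors. Of 9 macrophage and dendritic cell genes 2 rose between the butyrate groups, Fcgr1 and Flt3, with a median log2 difference of 0.84. Of 5 mast cell genes 1 rose, Fcer1a, with a median of 1.22. The part of these cells in the lymphocyte values was not tested.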

How the data were processed

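Total RNA of normal colonic mucosa was labelled with Cy3 and hybridised to Agilent mouse arrays, 1 sample per array. Per the file headers and the submitters' processing notes, Agilent Feature Extraction 10.5.1.1 made the scanner files. Their processed signal, used here, is an intensity after background subtraction within the array, as deposited, with no scaling between arrays. The authors' deposited value table holds log2 values of 21829 probes, each array being the log2 processed signal minus 1 constant; which quantity the constant is remains unknown.

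Each array had 41174 probes on 43379 spots, and 1639 control spots were left out. Outlier spots were set to missing and spots of a probe averaged. Values were log2 minus the array's 75th percentile. Probes well above background on at least 3 of 9 arrays with 2 values per group were kept (28521). RefSeq accessions gave symbols, and the probe with the highest mean stood for a gene. The DMH files carry another annotation version, and 1 version was used for all. limma 3.58.1 in R 4.3.3 (lmFit, eBayes, 2-sided) gave differences and p-values, adjusted over 21964 features. All butyrate arrays against DMH was a fit of 2 groups, the other comparisons 1 fit of 3 groups. The fit was tested on simulated data. Python 3.11.15 with pandas 2.3.3 read the files, and statmod 1.5.0 served the slide block.

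The members and lists were chosen with earlier results of these data known, and no list was tested as a set. Named genes were all called members, up to 4 per list of largest difference where groups did not overlap, up to 3 per list with the widest range, and of other lists up to 4 called genes by smallest p. The 5 members above DMH on all 6 butyrate arrays were named after their values were seen. Alternatives were other scaling, background correction (normexp with offset 50, on median spot signals, since the files hold no mean), the authors' values, other filters and probe choices, blocks by replicate number and slide, only the arrays compared, and leaving out each array. Same-numbered arrays did not deviate together in every pair, so numbers were not taken to pair samples.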

Additional observations from a re-analysis of the deposited data

Results flagged for a closer look

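Among the 6 butyrate arrays taken as 1 group, array 1 with tumors stood far from the others in 7 of the 39 members, by a ratio of its gap to the nearest array over the whole range above 0.625. The ratios were 0.644 for Lck, 0.690 for Icos, 0.651 for Il7r, 0.696 for Tbx21, 0.631 for Ms4a1, 0.692 for Pou2af1 and 0.683 for Mzb1. Chance gives such a ratio in about 1 in 20 groups, and the genes are not independent of each other. No median of the 4 lists passed it. The array also had the lowest 75th percentile signal of the 9, 188.

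The effect against DMH differed between the butyrate groups in 3 members, by the limma test of that difference itself. The difference, with tumors minus without tumors, was a log2 of 1.99 for Cd4, 1.61 for Gzma and 1.89 for Tnfrsf13c. For Cd4 it includes arrays not well above background, and the probe of Gzma was not well above background on array 2 without tumors.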

How the results depend on the processing

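No called difference turned its sign under any alternative. The 2 members called for all butyrate arrays against DMH became 1 when arrays were quantile scaled or after normexp background correction. With the mean of all probes of a gene they also became 1. Of all features 8.2%, 7.94% and 8.09% were then called. With no scaling, without the filter on dim probes or with slide as a random block the 2 became 0. Of all features 0.159%, 1.57% and 0.0774% were then called. Leaving out 1 array gave 0 to 2, where 0.0319% to 16.5% of all features were called. With tumors against DMH the 0 called became 2 with the authors' values, where 11.4% of all features were called. Leaving out 1 array gave 0 to 9, where 0.0182% to 8.16% of all features were called. Without tumors against DMH the 3 called became 0 with slide as a random block, where 4.58% of all features were called. With only the arrays of the 2 groups they became 6, where 44.1% of all features were called. Of these 6, Cd8a, Il7r and Tbx21 were called higher and the other 3 lower. Leaving out 1 array gave 2 to 5, where 12.9% to 45.3% of all features were called. The 5 came without array 1 with tumors, with Cd8a and Tbx21 called higher and 3 members lower. Between the butyrate groups the 3 called became 0 with no scaling, with the authors' values and with only the arrays of the 2 groups. Of all features 0.00455%, 25.6% and 0% were then called. They became 1 with no filter on dim probes (4.42% of all features called), 17 with slide as a random block (10.2%) and 7 with it fixed (1.63%). Leaving out 1 array gave 0 to 15, where 0.806% to 35.4% of all features were called.

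With the replicate number as a block, 1 member was called for all butyrate arrays, 0 with tumors and 3 without tumors, each against DMH. Between the butyrate groups 2 were called. In the same order 2.65%, 2.17%, 31.3% and 12.8% of all features were called. Correlations of same-numbered deviations ran from -0.010 to 0.263, and those of differently numbered arrays from -0.241 to 0.227. The pairs of arrays numbered 1 had 0.163, 0.263 and 0.074. Whether the numbers pair samples cannot be told from these values.

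Without scaling, all features shifted by a log2 of -0.85 for all butyrate arrays, -0.61 with tumors and -1.08 without tumors, relative to DMH, and 0.47 between the butyrate groups. List medians moved with that shift to -0.72 (NK), -0.31 (B) and -2.43 (plasma) for all butyrate arrays, -0.019 (NK) with tumors, and -0.76 (T), -1.34 (NK), -1.32 (B) and -2.74 (plasma) without tumors. With normexp the plasma medians were -0.58 in all 3 comparisons with DMH. Between the butyrate groups, slide as a random block gave medians of 1.26 (NK), 2.23 (B) and 0.50 (plasma), and as a fixed block 3.10 (T), 1.79 (NK), 2.87 (B) and -0.12 (plasma). Leaving out 1 array moved the NK median between the butyrate groups within 0.15 to 1.12 and the plasma median within 0.51 to 1.43. The cause of these moves was not tested.

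Counts over all features depended on single arrays as well. Leaving out 1 array gave 7 to 3626 called features for all butyrate arrays against DMH, 4 to 1792 with tumors, 2841 to 9941 without tumors and 177 to 7774 between the butyrate groups. Signal over background limits Cd4, Ncr1 and Pax5, none of which was well above background on any array without tumors. Ncr1 and Pax5 also failed on array 1 with tumors and on DMH arrays 1 and 2. Pax5 failed on array 3 with tumors as well. The limit was thus not confined to arrays with a dim 75th percentile, which was 740 and 808 on these DMH arrays and 880 on array 3 with tumors. Ctla4, Foxp3 and Gzma were each well above background on only 8 arrays.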
